A study of Mus musculus with 4 samples.

Results

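The S-phase genes are 39 genes of DNA replication and of its preparation, used as markers of S phase and read here in single cells of MC38 tumours. All 39 were among the 26172 genes listed for at least 1 of the libraries. They were chosen by name and not by a cut on measured values, though with earlier results of these data known. They were read in 2 kinds of cell barcode. Deep barcodes had 5000 or more UMIs (unique molecular identifiers, each standing for 1 captured transcript) and none from Cd3e, Cd3d, Cd3g or Ptprc. T barcodes had under 5000 UMIs and at least 1 from a CD3 gene.

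MC38 is a mouse colon carcinoma line. It was implanted in FOXP3 humanized mice and in WT mice, both 10 weeks old and untreated. Tumours were taken on day 20, and immune cells were enriched on Percoll and captured in droplets. Each genotype gave 1 cDNA library, so no difference between genotypes has a replicate check, and genotype cannot be told apart from library or mouse. Which part of Foxp3 was humanized, and whether animals were pooled, is not given in the sources used here.

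A cell licenses its replication origins before S phase by loading the MCM helicase with the help of Cdc6 and Cdt1, and fires them when the CMG helicase forms around Cdc45 and the GINS complex. E2F transcription factors, freed when cyclin-dependent kinases inactivate the retinoblastoma proteins, switch on most of the genes needed at that point. The same genes serve as S-phase markers in single-cell data, because a dividing tumour cell carries many of their transcripts and a resting lymphocyte few.

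The FOXP3 humanized library held 9671 deep barcodes of 11087 in all, with a median of 12522 UMIs, and the WT library 6705 of 7691, with a median of 16866. T barcodes numbered 155 in the FOXP3 humanized and 96 in the WT library, with medians of 1587 and 1700.5 UMIs. Although the labels call the cells immune, the 23 T cell markers summed to 84.1 and 63.9 CPM (counts scaled to a common total of UMIs) in deep barcodes of the FOXP3 humanized and WT libraries, against 9877 and 12166 CPM in T barcodes. These 23 include Cd3e, Cd3d and Cd3g, by which both kinds of barcode were chosen, so part of this contrast follows from that choice. The 31 tumour genes summed to 6657 CPM in FOXP3 humanized and 5989 CPM in WT deep barcodes, and to 1665 and 1170 CPM in T barcodes. In T barcodes of both libraries 8 of them, among these Krt8, Krt18 and Myl9, had 0 UMIs, as did every neutrophil marker. Keratins were near 0 in deep barcodes too. The libraries share 1551 barcode names, which are running cell labels and not sequences. All intervals are at 95% and reflect counting error alone.

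In deep barcodes the S-phase genes summed to 1945 CPM (1937 to 1952) in the FOXP3 humanized library and 2179 CPM (2171 to 2187) in the WT library. The log2 ratio of the sums was -0.16, but 0.0465 when centred on the median of all genes and 0.0135 in barcodes of 10000 to 20000 UMIs, and the median over the 39 genes was -0.21. The median over all 17134 genes with at least 20 UMIs was -0.24, and over the 9954 of them with at least as many UMIs as the sparsest S-phase gene it was -0.17. Past 1.5-fold, 0 S-phase genes were higher and 2 were lower, Hells and Ccne2. Of the 17134 genes 1.86% were higher and 19.4% lower, and of the 9954 genes of matched UMIs 0.382% were higher and 4.88% lower, so 2 of 39 is near the matched share. Past 1.2-fold 0 were higher and 11 lower, against 4.8% and 46.5% of the 17134 and 2.27% and 32.6% of the 9954 genes.

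The licensing factors had similar ratios. Cdc6, which recruits the helicase to origins, had 8.44 CPM in FOXP3 humanized and 10.2 CPM in WT deep barcodes, a log2 ratio of -0.27 (-0.39 to -0.16). Its partner Cdt1 had 49.8 CPM against 59.8 CPM in WT, and Gmnn, which encodes the Cdt1 inhibitor geminin, 64.8 against 76.1 CPM. All 3 intervals lay below 0 and near the median of all genes.

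The 6 subunits of the MCM ring did not share one ratio. Mcm7 had 66.1 CPM in FOXP3 humanized and 85.5 CPM in WT deep barcodes (log2 ratio -0.37, -0.41 to -0.33). Mcm5 had 66.7 and 68.6 CPM (-0.04, -0.08 to 0.00). The other 4 lay between them, at -0.26 for Mcm2, -0.15 for Mcm4, -0.14 for Mcm3 and -0.07 for Mcm6. Among the factors that activate the ring, Cdc45 was one of 4 S-phase genes with a ratio above 0, at 70.9 CPM in FOXP3 humanized and 68.5 CPM in WT deep barcodes (0.05, 0.01 to 0.09). The GINS subunits Gins1 and Gins2 were at -0.16 and -0.03, and Mcm10, a helicase activator, was at -0.44 (-0.57 to -0.32).

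At the fork, Pcna, the sliding clamp, had 58.7 CPM in FOXP3 humanized and 76.1 CPM in WT deep barcodes (-0.37, -0.42 to -0.33). The clamp loader subunits Rfc2 and Rfc4 lay near 0, at 0.04 and -0.06. Pclaf, a clamp-associated factor, had 123 CPM in FOXP3 humanized and 130.2 CPM in WT deep barcodes (-0.08). The flap nuclease gene Fen1, the single-strand binding subunit Rpa2 and the primase subunit Prim1 were at -0.24, -0.13 and -0.21. The clamp and its loader therefore had unequal ratios in the same barcodes.

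Among genes of nucleotide supply, Tyms, thymidylate synthase, had 66.0 CPM in FOXP3 humanized and 63.1 CPM in WT deep barcodes (0.06, 0.02 to 0.11). The ribonucleotide reductase subunits Rrm1 and Rrm2 were at 0.04 and -0.07. Dut, which removes dUTP, was at -0.13 and the uracil glycosylase gene Ung at -0.23.

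The chromatin genes spread widely. Hells, a chromatin remodeler needed for DNA methylation, had 41.3 CPM in FOXP3 humanized and 64.4 CPM in WT deep barcodes, the lowest ratio of the 39 at -0.64 (-0.69 to -0.59). Wdr76 was at -0.52 on 406 and 535 UMIs. Uhrf1, which reads hemimethylated DNA, was at -0.24, the histone chaperone gene Nasp and the assembly factor subunit Chaf1b at -0.14 and -0.13, the histone mRNA-binding gene Slbp at -0.21, and Cdca7, a partner of Hells, at -0.04. Hells and Cdca7, which act together, thus had ratios 0.6 log2 units apart.

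Among checkpoint and control genes, Dtl, part of the ligase that degrades Cdt1, had 9.84 CPM in FOXP3 humanized and 14.5 CPM in WT deep barcodes (-0.56, -0.66 to -0.46). The fork mediator Clspn was at -0.48 and its fork partner Tipin at -0.23. Ccne2 had 4.97 CPM in FOXP3 humanized and 7.63 CPM in WT deep barcodes (-0.62, -0.76 to -0.48). Its sister cyclin Ccne1 was at -0.21, and the transcription factor genes E2f1 and E2f8 at -0.26 and -0.47. The 10 genes under 20 CPM in WT deep barcodes had a median of -0.36 and the other 29 a median of -0.14.

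**Figure D1:**
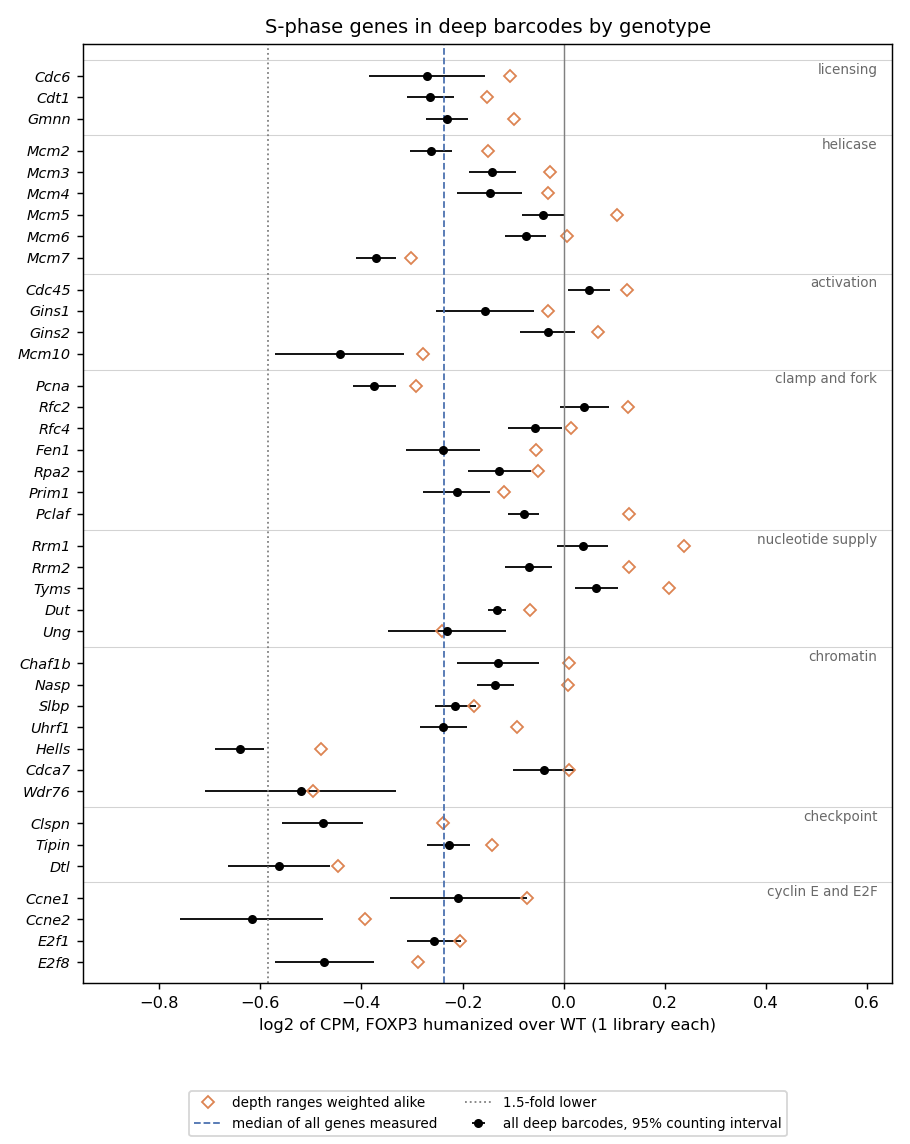
Log2 ratio of CPM in FOXP3 humanized over WT deep barcodes (1 library each) for the 39 S-phase genes, grouped by role; black points carry 95% counting intervals and open diamonds give the ratio with depth ranges weighted alike. The genes lie on both sides of the median of all genes (dashed line). Only Hells at -0.64 and Ccne2 at -0.62 pass 1.5-fold lower (dotted line), while no diamond does.

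Other genes of the cell cycle were read beside them. Of 61 further replication genes 0 were higher and 1 lower past 1.5-fold (median -0.23), of 59 G2 and mitosis genes 0 were higher and 0 lower (median -0.11), and of 27 measured genes that control the passage from G1 to S 0 were higher and 1 lower (median -0.13). The histone genes of the replication-dependent clusters differed more, with 0 higher and 31 lower of 59 measured (median -0.61). Their summed level was close all the same, at 897 CPM in FOXP3 humanized and 970 CPM in WT deep barcodes. Transcripts of these histone genes mostly lack a poly(A) tail and the genes have near-identical copies, so their counts are uncertain.

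The depth of the barcodes moved with these ratios. In the ranges of 5000 to 10000, 10000 to 20000, 20000 to 40000 and 40000 or more UMIs, the S-phase genes summed to 1552, 1904, 2184 and 2192 CPM in FOXP3 humanized and to 1613, 1886, 2428 and 2373 CPM in WT deep barcodes. The shallowest range held 35.1% of FOXP3 humanized and 19.8% of WT deep barcodes, and the deepest 1.42% and 5.25%. Deep barcodes with many UMIs therefore had more S-phase transcripts per UMI, and the WT library had more of such barcodes. At 10000 to 20000 UMIs the median ratio was -0.02, with 18 genes above and 21 below 0. With the 4 ranges weighted alike in both libraries it was -0.07, with 13 above and 26 below 0, and no S-phase gene passed 1.5-fold, while the median of all genes was -0.22 and that of the 9954 genes of matched UMIs -0.15.

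Some genes kept a side in every range. Tyms was above 0 in all 4 ranges and 16 genes were below 0 in all 4. Of all 17134 genes 7.98% were above and 44% below 0 in all 4, and of the 9954 genes of matched UMIs 11.6% and 54.3%, so the count of 16 of 39 is not particular to the S-phase genes. Hells had ratios of -0.45, -0.40, -0.61 and -0.50 from the shallowest to the deepest range, and none of its intervals reached 0. Dtl had -0.46, -0.34, -0.61 and -0.42. Ccne2 had -0.56, -0.18, -0.59 and -0.18, and its interval held 0 in the second and the deepest range.

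Between the deepest and the shallowest range, 18 of 38 measured S-phase genes were at least 1.5-fold higher in the FOXP3 humanized library and 19 of 39 in the WT library, and 0 were lower in either. Of all genes measured 8.55% were higher and 2.96% lower in the FOXP3 humanized and 8.2% and 2.31% in the WT library. Ung fell just short of 1.5-fold lower in the WT library, with 9.04 CPM in the shallowest and 6.03 CPM in the deepest range. Its log2 ratio there was -0.584 (-0.997 to -0.170), against -0.02 (-0.48 to 0.43) in the FOXP3 humanized library. From the shallowest to the deepest range, Clspn had 9.73, 14.4, 20.2 and 21.6 CPM in FOXP3 humanized deep barcodes and 11.7, 15.4, 25.8 and 30.5 CPM in WT ones. Pclaf had 81.8, 114, 153 and 163 CPM in FOXP3 humanized and 74.98, 95.5, 154 and 165 CPM in WT deep barcodes. E2f1 had no such gradient in the FOXP3 humanized library and was highest in the third range of the WT library, at 38.2, 39.7, 37.8 and 34.99 CPM in FOXP3 humanized and 37.8, 47.2, 48.2 and 41.3 CPM in WT deep barcodes. G2 and mitosis genes had the steeper gradient, with 53 of 58 measured genes at least 1.5-fold higher in each library.

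**Figure D2:**
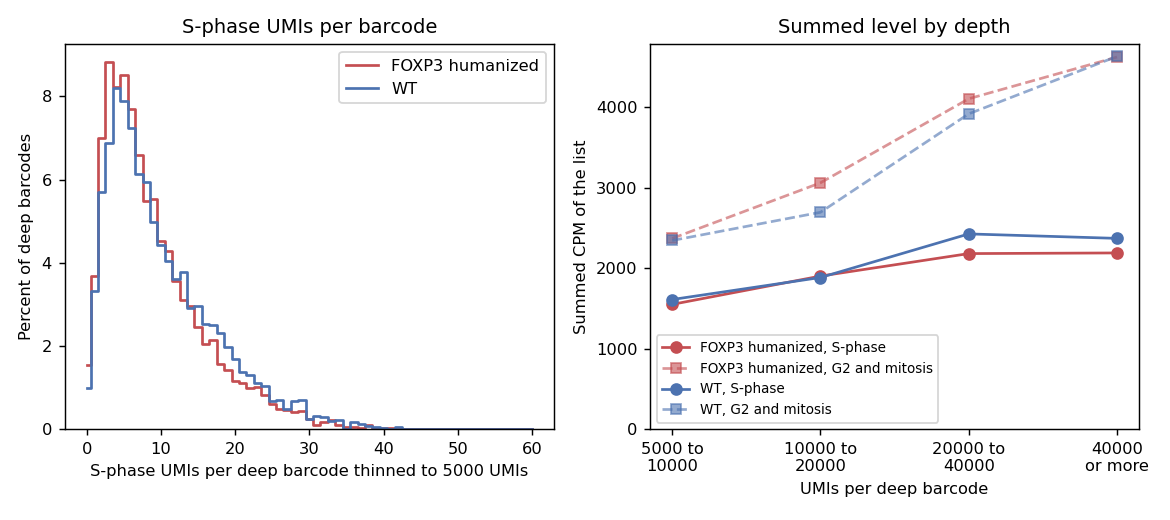
Left, percent of deep barcodes by their number of S-phase UMIs after thinning to 5000 UMIs each; right, summed CPM of the S-phase genes (solid) and of the G2 and mitosis genes (dashed) by depth range, for the FOXP3 humanized and WT libraries. The medians are 7 and 8 UMIs, and both sums are higher in the 2 ranges from 20000 UMIs on than in the 2 below, in each library.

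Each deep barcode was thinned at random to 5000 UMIs so that all had the same total. The S-phase genes then gave a mean of 9.03 UMIs per barcode and a median of 7 in the FOXP3 humanized library, and a mean of 10.1 and a median of 8 in the WT library. Between the 10th and 90th percentile the sum ran from 2 to 19 in FOXP3 humanized and from 2 to 20 in WT deep barcodes, with maxima of 46 and 51. The variance was 5.15 times the mean in the FOXP3 humanized and 5.37 times in the WT library, where independent counting would give equality. Only 1.54% of FOXP3 humanized deep barcodes (1.30 to 1.81%) and 0.999% of WT ones (0.775 to 1.27%) had no S-phase UMI.

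The S-phase genes varied together from barcode to barcode. Deep barcodes were ordered by the thinned sum of the other 38 genes and cut into quintiles (5 equal groups), the gene itself being left out of the sum. In both libraries 39 of 39 were at least 2-fold higher in the top than in the bottom quintile, with a median of 6.30-fold in the FOXP3 humanized and 5.99-fold in the WT library. Of all genes with at least 100 thinned UMIs, ordered by the sum of the 39, 6.57% were that much higher in the FOXP3 humanized and 6.43% in the WT library, and 0.847% and 1.02% that much lower. The list is known as a set of co-regulated markers, so this shows that the list holds together in these cells. Ordered by the sum of the 39, the bottom and top quintiles had median raw UMIs of 10212 and 14326.5 in the FOXP3 humanized library. In the WT library they had 12786 and 20125, and the part this played was not tested.

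The slope differed widely among the genes. Pclaf had 144 UMIs per 100 barcodes in the top against 10.9 in the bottom quintile of the FOXP3 humanized library, 13.2-fold (11.5 to 15.3), and 145 against 8.43 in the WT library, 17.2-fold (14.2 to 21.0). Clspn was 8.03-fold (5.74 to 11.5) in the FOXP3 humanized and 22.5-fold (13.5 to 40.7) in the WT library. Its bottom quintiles held only 2.02 and 1.12 UMIs per 100 barcodes, and whether the libraries differ was not tested. Cdc6 was 12.6-fold (7.68 to 22.0) in the FOXP3 humanized and 14.7-fold (8.02 to 30.1) in the WT library, and Rrm2 11.1-fold and 10.2-fold. At the other end stood Cdc45 at 2.40-fold (2.14 to 2.69) and 2.30-fold (2.00 to 2.65), Dut at 2.75-fold and 2.78-fold, and Cdca7 at 3.16-fold and 2.72-fold in the FOXP3 humanized and WT libraries. Of the 10 steepest genes in each library, 6 were the same.

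Within the MCM ring, whose subunits assemble in equal number, the slopes were in the same order in both libraries. Mcm5 was 9.02-fold (7.59 to 10.8) in the FOXP3 humanized and 10.3-fold (8.32 to 13.0) in the WT library. Mcm2 was 3.29-fold (2.90 to 3.73) and 3.04-fold (2.65 to 3.50), and Mcm6 3.64-fold and 3.27-fold. Mcm3 at 7.03-fold and 6.22-fold, Mcm4 at 6.30-fold and 5.56-fold and Mcm7 at 5.38-fold and 4.57-fold lay between. The bottom quintiles still held 17.1 and 20.7 UMIs of Mcm2 per 100 barcodes in the FOXP3 humanized and WT libraries, against 7.44 and 6.71 of Mcm5, counts that also carry each transcript's own capture and length.

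**Figure D3:**
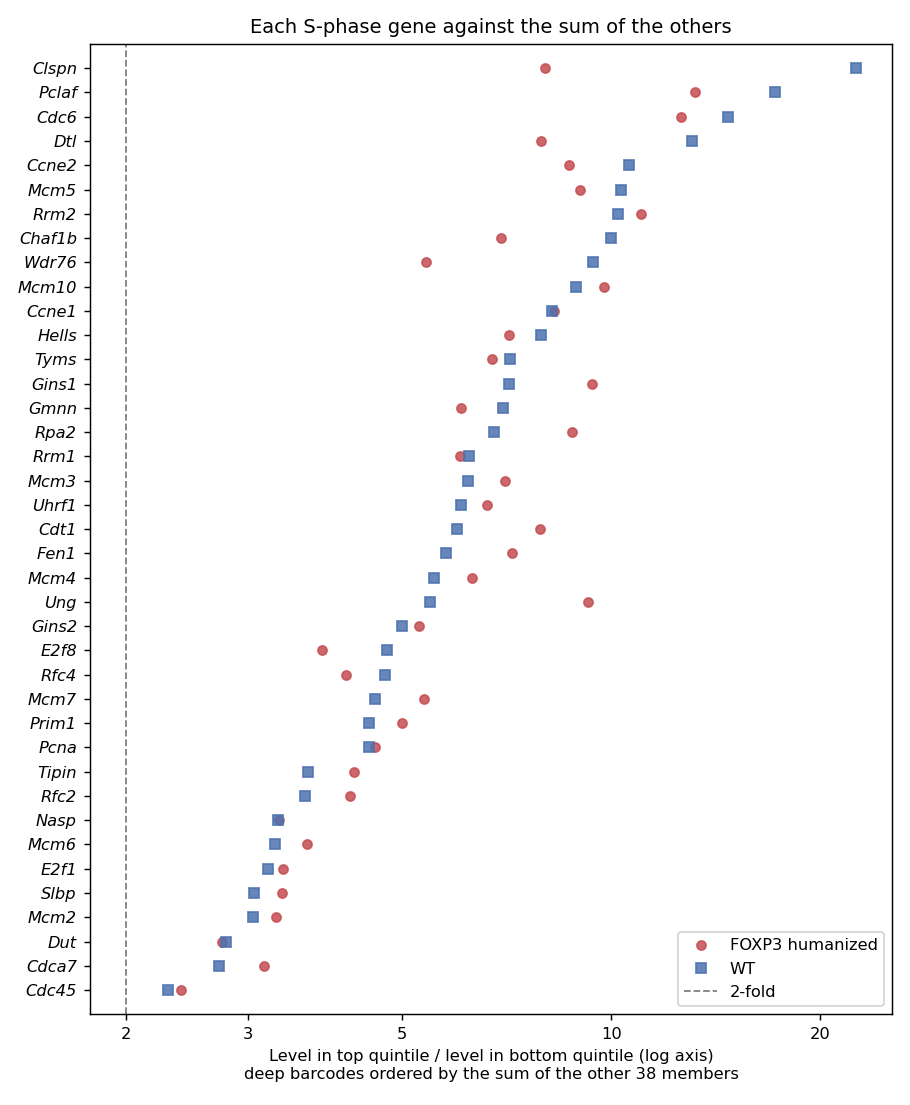
Level in the top quintile over that in the bottom quintile of deep barcodes ordered by the other 38 S-phase genes (log axis), for the FOXP3 humanized (circles) and WT (squares) libraries. All 39 genes lie right of the 2-fold line, from about 2.3-fold for Cdc45 to 22.5-fold for Clspn in the WT library.

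Genes outside the list were ordered by the same sum. Of 60 further replication genes measured, 52 in the FOXP3 humanized and 51 in the WT library were at least 2-fold higher in the top quintile. The thymidine kinase gene Tk1 was 14.6-fold and 21.2-fold higher. The polymerase subunit Pold4 was 0.807 and 0.680 times as high and the p53-inducible reductase subunit Rrm2b 0.874 and 1.02 times. Of 58 G2 and mitosis genes 39 and 46 were at least 2-fold higher, among them Top2a at 6.65-fold and 8.21-fold, while Cdc20, a mitotic activator, was 1.19-fold and 1.48-fold. The tumour genes as a list varied little with it, at a median log2 ratio of 0.16 and 0.04. Of 25 measured, 0 and 2 were at least 2-fold higher, against 6.57% and 6.43% of all genes, and 0 were that much lower. The 2 were Wnt7b at 2.07-fold and Ccl2 at 2.00-fold in the WT library. In the FOXP3 humanized library they were 1.17-fold and 1.79-fold.

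Genes of G1 to S control were mixed. In the FOXP3 humanized and WT libraries 9 and 10 of 27 were at least 2-fold higher in the top quintile, against 6.57% and 6.43% of all genes, and 0 were that much lower. Fbxo5, which encodes the inhibitor Emi1, was 7.68-fold and 11.1-fold higher. Ccnd1, cyclin D1, was 1.55-fold and 1.46-fold, and Cdkn1a, the p21 gene, 1.06-fold and 1.21-fold. Cdkn1b, the p27 gene, was 0.636 and 0.832 times as high in the top as in the bottom quintile.

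The histone genes split in 2 directions. Of 25 measured, 11 had a higher and 10 a lower level, both past 2-fold, in the top quintile of the FOXP3 humanized library, and 12 and 10 in the WT library. H1f5 was 17.6-fold and 23.5-fold higher and H3c3 12.9-fold and 21.5-fold. H2bc4, whose 20185 thinned UMIs in the FOXP3 humanized and 12282 in the WT library weigh most among those named here, was 0.239 and 0.171 times as high, and H1f2 0.256 and 0.232 times. The summed histone level was accordingly lower, at 3.28 thinned UMIs per barcode in the top against 6.07 in the bottom quintile of the FOXP3 humanized library and 3.74 against 5.80 in the WT library.

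Ordering the barcodes by G2 and mitosis genes, none of which is an S-phase gene, placed the S-phase genes before the top. From the lowest to the highest quintile the S-phase sum averaged 4.95, 6.73, 10.3, 12.8 and 10.4 thinned UMIs per barcode in the FOXP3 humanized and 5.39, 6.87, 11.0, 14.6 and 12.5 in the WT library. The level peaked in the fourth quintile for 33 of 39 genes in the FOXP3 humanized and 32 of 39 in the WT library. From the fourth to the highest quintile it was lower for 37 and 35 genes. Neither count was made over all genes, so whether either is particular to the S-phase genes was not tested. Top against bottom, 22 genes in the FOXP3 humanized and 27 in the WT library were at least 2-fold higher and 1 was lower in each, against 7.07% and 7.05% higher and 0.424% and 0.442% lower among all genes.

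The lower gene was Ung, the glycosylase that takes uracil out of DNA. From the lowest to the highest quintile it had 0.034, 0.064, 0.069, 0.023 and 0.007 thinned UMIs per barcode in the FOXP3 humanized and 0.040, 0.066, 0.098, 0.036 and 0.019 in the WT library. Its top quintile stood at 0.197 times the bottom one (0.0997 to 0.361) in the FOXP3 humanized and 0.491 times (0.294 to 0.799) in the WT library. Ung followed the other S-phase genes all the same, 9.25-fold (5.82 to 15.5) and 5.48-fold (3.67 to 8.45) higher in their top quintile. It was thus an S-phase gene whose peak lay earlier on this order than that of most others, and Cdca7 also peaked in the third quintile in both libraries, at 1.26-fold and 1.15-fold top against bottom.

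The genes most tied to the G2 and mitosis sum were Mcm10 at 11.6-fold (5.37 to 29.7) and 11.4-fold (5.80 to 25.7), Pclaf at 7.94-fold and 13.6-fold, Clspn at 8.29-fold and 10.5-fold and Rrm2 at 7.04-fold and 9.43-fold in the FOXP3 humanized and WT libraries. Of the cyclin E genes, Ccne1 was at 1.03-fold (0.647 to 1.63) and 1.44-fold (0.862 to 2.45) and Ccne2 at 3.00-fold (1.67 to 5.66) and 3.14-fold (1.69 to 6.21). E2f1 was at 1.40-fold and 1.52-fold. E2f8, a repressor of the E2F family, was at 5.31-fold and 4.83-fold, and thus 3-fold or more above E2f1 in both libraries. Depth was equal by thinning, but the barcodes had differed in it, with median raw UMIs of 10293 in the lowest and 15278.5 in the highest quintile of the FOXP3 humanized library and 13427 and 22253 in the WT library, and the part this played was not tested.

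**Figure D4:**
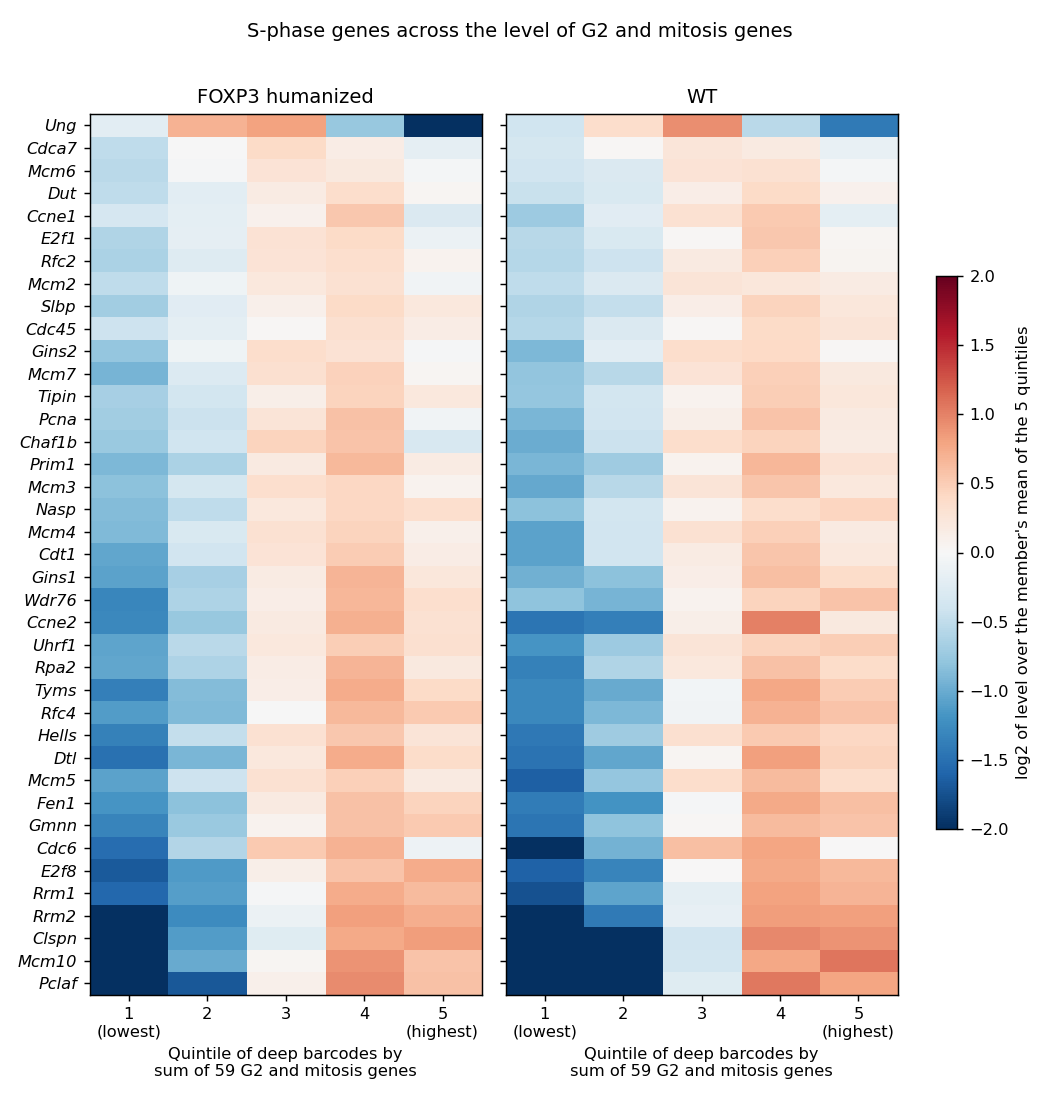
Level of each S-phase gene in the quintiles of deep barcodes ordered by the summed level of 59 G2 and mitosis genes, as log2 over the gene's mean of the 5 quintiles (colour scale cut at -2 and 2), for the FOXP3 humanized (left) and WT (right) libraries. Most genes are highest in the fourth quintile, and Ung, at the top of both panels, is lowest in the highest quintile.

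Promoter sequences were examined because the genes varied together. RefSeq promoters of GRCm38.p6, which run from 250 bases before to 50 after a transcript start, were found for 32 of the 39 genes, 36 in all. Searched on both strands were the E2F letters TTGGCGC with the variants TTCCCGC, as well as TTGCCGC, together with TTCGCGC. They were in 22 of the 36, or 61.1%, in 59.3% of promoters of the further replication genes, in 20.0% of those of G2 and mitosis genes and in 9.57% of all 32851 promoters. Among promoters with a GC content of at least the lower quartile of the S-phase set the share was 15.9%. The CHR letters TTTGAA and TTCGAA, which overlap no E2F letters, were in 19.4% of S-phase, 76.4% of G2 and mitosis and 19.2% of all promoters, and CCAAT in 58.3%, 78.2% and 37.4%. Among promoters with the GC limit given above, CHR letters were in 10.3% and CCAAT in 34.4%.

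The promoters below belong to the gene with a steep slope in both libraries (Pclaf), to the steepest and a shallow subunit of the MCM ring (Mcm5, Mcm6), to the gene furthest apart between genotypes (Hells) and to the gene lower at the top of the G2 and mitosis order (Ung). Capitals mark E2F letters on either strand, and where matches overlap the capitals run on. Pclaf lies at chr9:65890073-65890372 on the plus strand, Mcm5 at chr8:75109259-75109558 on the plus strand, Mcm6 at chr1:128359656-128359955 on the minus strand, Hells at chr19:38930740-38931039 on the plus strand and Ung at chr5:114130185-114130484 on the plus strand.
Pclaf: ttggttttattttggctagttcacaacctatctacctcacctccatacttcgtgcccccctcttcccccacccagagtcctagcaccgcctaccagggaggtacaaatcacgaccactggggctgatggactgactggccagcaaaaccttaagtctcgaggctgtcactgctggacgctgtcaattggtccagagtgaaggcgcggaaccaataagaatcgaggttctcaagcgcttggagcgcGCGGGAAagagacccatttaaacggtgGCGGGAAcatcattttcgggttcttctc
Mcm5: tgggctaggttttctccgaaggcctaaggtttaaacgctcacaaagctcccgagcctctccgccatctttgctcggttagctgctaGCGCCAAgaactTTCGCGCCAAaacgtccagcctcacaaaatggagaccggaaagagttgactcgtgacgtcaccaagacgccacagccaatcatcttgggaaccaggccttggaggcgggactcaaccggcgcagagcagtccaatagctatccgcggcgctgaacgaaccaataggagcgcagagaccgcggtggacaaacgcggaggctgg
Mcm6: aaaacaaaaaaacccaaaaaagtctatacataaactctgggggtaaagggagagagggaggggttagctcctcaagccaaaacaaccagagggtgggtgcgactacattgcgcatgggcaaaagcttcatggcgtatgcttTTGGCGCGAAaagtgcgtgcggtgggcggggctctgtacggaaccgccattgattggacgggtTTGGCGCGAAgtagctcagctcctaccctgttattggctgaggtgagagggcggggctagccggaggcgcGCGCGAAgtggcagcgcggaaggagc
Hells: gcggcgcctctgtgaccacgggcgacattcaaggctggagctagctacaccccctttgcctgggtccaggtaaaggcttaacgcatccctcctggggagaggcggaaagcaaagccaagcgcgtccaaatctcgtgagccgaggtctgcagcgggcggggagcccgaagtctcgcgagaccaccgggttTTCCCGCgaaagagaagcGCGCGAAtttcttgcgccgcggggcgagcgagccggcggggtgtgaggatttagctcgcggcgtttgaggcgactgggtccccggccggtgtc
Ung: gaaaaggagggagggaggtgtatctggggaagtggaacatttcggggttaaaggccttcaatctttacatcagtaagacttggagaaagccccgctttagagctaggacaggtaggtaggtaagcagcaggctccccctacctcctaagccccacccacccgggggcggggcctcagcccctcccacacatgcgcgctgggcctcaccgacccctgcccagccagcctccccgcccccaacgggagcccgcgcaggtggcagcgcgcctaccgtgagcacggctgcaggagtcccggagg
Pclaf has 2 matches, whose first bases lie at -5 and 23 from the start. Mcm5 has 3, at -164, -152 and -149. Mcm6 has 5, in overlapping pairs at -109 and -106 and at -46 and -43, and alone at 25. Hells has 2, at -61 and -43, and Ung has none. The number of matches did not order the slopes within the ring, since Mcm6 with 5 matches had 3.64-fold and 3.27-fold and Mcm5 with 3 had 9.02-fold and 10.3-fold in the FOXP3 humanized and WT libraries. Over the genes with a promoter, the 20 with E2F letters had a median slope of 7.08-fold and 6.23-fold, and the 12 without 3.97-fold and 3.89-fold, with ranges that overlap. A match is a run of letters and not a site shown to be bound.

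In T barcodes the S-phase genes gave few UMIs, 259 in the FOXP3 humanized and 198 in the WT library. They summed to 925 CPM (816 to 1045) and 1068 CPM (924 to 1227), a log2 ratio of -0.21 with an interval from -0.48 to 0.07. Of 39 genes, 2 had 0 UMIs in the FOXP3 humanized and 5 in the WT library, Cdc6 in both. Only 5 reached 20 UMIs over both libraries. Of these 0 were higher and 3 lower past 1.5-fold, Slbp, Mcm6 and Rfc2, against 11% higher and 19.3% lower among 3388 genes measured in T barcodes.

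Slbp had 15 UMIs in FOXP3 humanized and 25 in WT T barcodes, or 53.6 CPM (30.0 to 88.4) and 135 CPM (87.3 to 199), a log2 ratio of -1.33 (-2.36 to -0.35). Of the 5 it alone had an interval that did not hold 0. Dut had 39 and 35 UMIs, or 139 CPM in FOXP3 humanized and 189 CPM in WT T barcodes. Nasp had 33 and 20 UMIs, or 118 and 108 CPM, Mcm6 12 and 13, and Rfc2 11 and 11. Differences in the remaining 34 genes were not detectable at this depth.

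The transcripts were spread over many T barcodes. In the FOXP3 humanized library 41 of 155 T barcodes (26.5%, exact binomial interval 19.7 to 34.1%) and in the WT library 17 of 96 (17.7%, 10.7 to 26.8%) had no S-phase UMI. Those with 5 or more numbered 10 and 7, and held 28.6% and 24.7% of the S-phase UMIs with 10.5% and 11.0% of all UMIs of T barcodes. Being chosen by their S-phase UMIs, they hold a larger share of these by that choice. They were also deeper, with median UMIs of 3026 and 2486, against 1587 and 1700.5 over all T barcodes. They also held 21.5% and 29.0% of the tumour-gene UMIs. The barcode with the most S-phase UMIs had 14 in the FOXP3 humanized library, beside 18 tumour-gene UMIs, and 16 in the WT library, beside 28. The few T barcodes rich in S-phase transcripts were thus also rich in tumour transcripts, and the part this played was not tested.

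Set against T barcodes, deep barcodes had a higher S-phase level. The sum over all 39 genes was 1945 CPM in deep against 925 CPM in T barcodes of the FOXP3 humanized library (log2 ratio 1.07, 0.90 to 1.25) and 2179 against 1068 CPM in the WT library (1.03, 0.83 to 1.24). Cell type and depth differ together between the 2 kinds of barcode and cannot be told apart. With at least 5 UMIs expected in the T sum, 28 genes in the FOXP3 humanized and 27 in the WT library could be measured. Genes reach that minimum through their deep level, so the count is a description only. Of these, 16 were at least 2-fold higher in deep barcodes and 0 lower in each library, against 27.1% higher and 11.7% lower of all genes in the FOXP3 humanized and 29.8% and 10.3% in the WT library.

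Measured in both libraries were 27 genes, of which 12 were at least 2-fold higher in deep barcodes of both, Gmnn, Mcm2, Mcm5, Mcm7, Cdc45, Gins2, Rfc4, Pclaf, Rrm2, Tyms, Dut and Hells. The share of all genes that much higher in both was not counted. These genes too reach the minimum through their deep level, so the count of 12 is a description only. Cdc45 had 70.9 CPM in deep and 10.7 CPM in T barcodes of the FOXP3 humanized library, and 68.5 and 10.8 CPM in the WT library. Pclaf had 123 and 21.4 CPM in the FOXP3 humanized and 130.2 and 32.4 CPM in the WT library. Other genes were close. Nasp had 81.6 CPM in deep and 118 CPM in T barcodes of the FOXP3 humanized library (log2 ratio -0.53, -1.02 to 0.01) and 89.6 and 108 CPM in the WT library (-0.27, -0.90 to 0.44). Rpa2 and Rfc2 also differed by less than 1.5-fold in both. Slbp was at 0.30 in the FOXP3 humanized library, and at -0.82 (-1.38 to -0.19) in the WT library, with more in T barcodes.

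Tumour transcripts in T barcodes give a level for comparison. The T level of the S-phase genes was 47.6% of the deep level in the FOXP3 humanized and 49.0% in the WT library, and that of the 31 tumour genes 25% and 19.5%. The part of tumour transcripts in the S-phase level of T barcodes was not tested. G2 and mitosis genes stood at 48.9% and 62.0% and the further replication genes at 64.3% and 66.8%. The sum of the G1 to S control genes was higher in T barcodes, at 145% and 141% of the deep level. Gene by gene they went both ways. Past 2-fold, 4 of 13 measured were higher in deep barcodes and 4 lower in the FOXP3 humanized library, against 27.1% and 11.7% of all genes. In the WT library 4 of 11 were higher and 2 lower, against 29.8% and 10.3%. Shallow barcodes under 5000 UMIs without a CD3 or Ptprc UMI had 2001 CPM (1951 to 2052) in the FOXP3 humanized and 1886 CPM (1829 to 1945) in the WT library. Their level was close to that of all deep barcodes together. It was above that of deep barcodes of 5000 to 10000 UMIs, at 1552 and 1613 CPM. The gradient among deep barcodes thus did not continue below 5000 UMIs, and the cause was not tested. Set against the shallow barcodes, all deep barcodes had 0 genes of 39 past 2-fold higher or lower in the FOXP3 humanized library, where 0.409% and 1.75% of all genes were. In the WT library 1 was higher, Ccne2 on 8 shallow UMIs, and 0 were lower, against 0.95% and 1.46%.

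**Figure D5:**
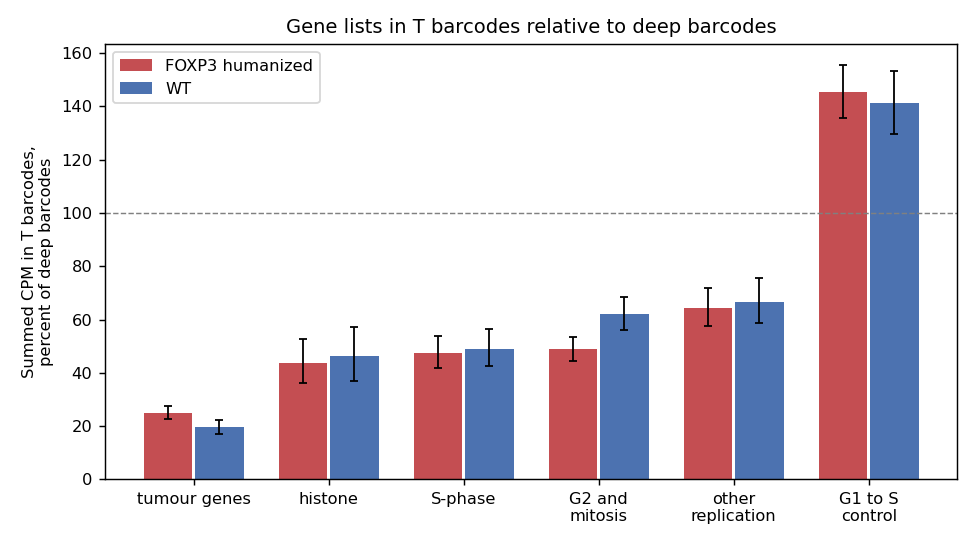
Summed CPM in T barcodes as percent of that in deep barcodes for 6 gene lists in the FOXP3 humanized and WT libraries (1 each); error bars are 95% counting intervals. The S-phase genes sit at 47.6% and 49.0%, above the tumour genes at 25% and 19.5%. They lie below the sum of the G1 to S control genes, which passes 100% although its genes go both ways.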

How the data were processed

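Droplet single-cell libraries of dissociated tumours were deposited as raw UMI counts per gene and barcode. The authors wrote these deposited counts with PISA 1.0, per the file headers. The build was GRCm39, per the submitters' processing notes. How reads were aligned and annotated, how those matching several genes were counted and how cells were called is not given in the sources used here. The 2 oligo libraries were not used here.

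UMIs were summed per library and kind of barcode and scaled to CPM, with exact Poisson intervals. Log2 ratios have exact conditional binomial intervals and shares Clopper-Pearson intervals, all at 95% and for counting error only. In ratios a floor of 3 counts replaced a sum of 0. No test was made, since each genotype has 1 library. No doublet caller was run, and barcodes with transcripts of several cell types remain. Thinning drew 5000 UMIs without replacement from each deep barcode and 1000 from T barcodes. Totals ranged from 1001 to 115306 UMIs per barcode in the FOXP3 humanized and from 1001 to 157958 in the WT library, which bounds the precision of single barcodes.

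The members and lists were chosen with earlier results of these data known. All 39 genes are accounted for, with values in full for 1 to 4 of each role. Some but not all of the genes at the ends of each comparison are among them, so named genes are not always the extremes. The minimum of 5 UMIs expected in T barcodes and the weighting of depth ranges were chosen after seeing the data. Promoters came from a RefSeq table of GRCm38.p6, another build than that of the counts, so only symbols link them. Scripts used Python, numpy and scipy, and were tested on simulated data.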

Additional observations from a re-analysis of the deposited data

How the results depend on the processing

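No paired analysis was possible because each genotype has 1 library and no result comes from a test. In deep barcodes the count of S-phase genes past 1.5-fold lower, 2 as reported, became 1 when scaled without mitochondrial and ribosomal protein genes and 1 when thinned, 0 when centred on the median of all genes, 0 within 10000 to 20000 UMIs, 0 with depth ranges weighted alike (an alternative chosen after seeing the data) and 11 past 1.2-fold, where 46.5% of all genes are lower. Centring took out a shift of -0.21 (median of genes with at least 100 UMIs). The median ratio became -0.000838 when centred, -0.0189 within 10000 to 20000 UMIs and -0.0718 with ranges weighted alike. The summed ratio became -0.121 without mitochondrial and ribosomal protein genes and -0.0554 with ranges weighted alike, and turned positive when centred, at 0.0465, and within 10000 to 20000 UMIs, at 0.0135. In T barcodes the genes measured, higher and lower were 5, 0 and 3 as reported. With at least 10 UMIs they were 15, 3 and 6, and with no minimum 38, 7 and 16. Under 2500 UMIs 3 were measured and 1 was lower, and thinned to 1000 UMIs 3 were measured and 1 was lower. For deep over T barcodes of the FOXP3 humanized library the log2 ratio of tumour genes was 2.32 thinned, 2.35 with at least 2 CD3 UMIs and 4.30 in T barcodes with the lower tumour share, where that of S-phase genes was 1.30. In the WT library thinning left 15 measured and 8 higher, a 1.5-fold limit gave 1 lower, tumour genes were at 2.79 with at least 2 CD3 UMIs and 3.65 with the lower tumour share, and the S-phase log2 ratio was 0.821 for shallow CD3-negative over T barcodes, with the shallow ones in place of deep ones, another choice made after seeing the data. The tumour ratios in T barcodes with the lower tumour share follow from that choice of barcodes. Across depth 1 gene was lower in the WT library when scaled without mitochondrial and ribosomal protein genes. The cause of these moves was not tested, except that thinning and stricter limits leave fewer UMIs. Of 606 values of single genes under alternatives, 424 stayed within their counting interval, 182 moved beyond it and 0 that had passed their fold limit changed sign. The results by quintiles kept their counts within 1.5 times under another seed, thinning to 10000 UMIs and a 1.5-fold limit. The other scaling was not applied to them. Depth limits T barcodes most, where 34 of 39 genes fall under 20 UMIs.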
